A study of Mus musculus with 30 samples.

Results

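Indian hedgehog and parathyroid hormone-related protein form a signalling loop in cartilage, and 9 genes of that loop were followed here in the healing fracture callus of lean and obese mice. The members were picked by symbol, with no threshold on a measured value but with earlier results of these data known. They were the ligand gene Ihh, the receptor and inhibitor genes Ptch1 and Hhip, the signal transducer gene Smo, the transcription factor genes Gli1, Gli2 and Gli3, the PTHrP gene Pthlh and its receptor gene Pth1r. All 9 were found among the 43629 genes of the count table. RNA came from the callus of male C57BL/6J mice, aged 20 weeks, after an open osteotomy of the right tibia held by an intramedullary nail. Lean mice, kept on a low-fat diet, were killed on d3, d5, d7 and d10 after fracture. Mice made obese by a high-fat diet (DIO) were killed on the same days and also on d14 and d21. Each of the 10 groups held 3 mice, and each of the 30 libraries was made from 1 callus. No allele or drug distinguished the groups, and both diets shared the strain, sex, age and fracture. Lean mice beyond d10 were not analysed here, and the diets were compared up to that day.

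In the growth plate, prehypertrophic and early hypertrophic chondrocytes secrete Indian hedgehog. The protein binds the receptor Ptch1, which otherwise holds the membrane protein Smo inactive, and free Smo lets the Gli factors act on their target genes. Ptch1, Hhip and Gli1 are themselves targets of the pathway, so their transcripts are often read as its output. Hedgehog signalling induces Pthlh in resting and periarticular cells, and PTHrP acts through Pth1r to keep chondrocytes proliferating and to delay their hypertrophy. A fracture that heals through cartilage uses the same genes for a limited time.

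Total counts per library ran from 13247122 to 26365620, with a median of 16854427. Levels are given as CPM, the reads of a gene scaled to the size of its library after correction with TMM factors. The callus label was compared with marker genes. Col2a1, the major cartilage collagen, rose from 99.4 to 148 CPM in lean calli of d3 to 7121 to 46852 CPM on d10, and in DIO calli it was highest on d7, at 9471 to 26622 CPM. Skeletal muscle markers were high in most libraries, at 406 to 26885 CPM summed over 10 genes, so muscle RNA was present in the callus samples. The keratinocyte genes Krt5, Krt14, Krt15 and Dsg3 had at most 7 counts in any library. Among the other listed keratinocyte genes, Krt1 and Lor had at most 5 and 17 counts. Krt10 and Trp63 were found in every library, at up to 63 and 84 counts (3.95 and 5.04 CPM). The first lean callus of d10 stood apart, with 84000 CPM summed over the 12 chondrocyte genes against 19847 and 17160 CPM in the other two, and with 1103 CPM of muscle markers against 15365 and 10582 CPM. For the members that moved most with it, Ihh and Pth1r, values are also given without it. In bulk RNA, fewer cells of a type and less RNA per cell cannot be told apart.

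The sequences just upstream of the start sites of Ihh, Ptch1 and Hhip are shown because these genes changed together over healing. They were taken from RefSeq (GRCm38.p6), run 5′ to 3′ on the transcribed (minus) strand and hold the 250 bases before the start site, and capitals mark a full cAMP response element (CRE, TGACGTCA), the site of the factor through which cAMP signalling from receptors such as Pth1r can act.
Ihh promoter, chr1:74951673-74951922: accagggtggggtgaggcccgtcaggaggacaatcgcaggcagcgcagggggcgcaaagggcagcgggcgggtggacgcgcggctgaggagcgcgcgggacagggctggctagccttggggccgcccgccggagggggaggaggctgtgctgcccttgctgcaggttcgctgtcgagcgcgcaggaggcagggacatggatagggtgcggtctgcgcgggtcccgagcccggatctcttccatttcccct
Ptch1 promoter, chr13:63565736-63565985: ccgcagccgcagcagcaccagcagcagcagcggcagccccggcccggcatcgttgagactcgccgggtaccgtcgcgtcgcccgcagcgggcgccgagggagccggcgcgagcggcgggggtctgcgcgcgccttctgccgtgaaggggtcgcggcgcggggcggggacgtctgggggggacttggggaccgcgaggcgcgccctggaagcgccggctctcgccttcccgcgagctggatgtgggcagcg
Hhip promoter, chr8:80058009-80058258: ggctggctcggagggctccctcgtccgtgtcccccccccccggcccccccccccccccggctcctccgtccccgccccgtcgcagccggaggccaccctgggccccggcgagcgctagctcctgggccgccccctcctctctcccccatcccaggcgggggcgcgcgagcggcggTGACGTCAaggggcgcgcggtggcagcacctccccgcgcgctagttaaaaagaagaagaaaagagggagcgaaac
The Ptch1 sequence belongs to a start site inside the annotated gene and lies in an intron of longer transcripts. All 3 were rich in G and C, at 72% for Ihh, 78.4% for Ptch1 and 76% for Hhip, against a median of 52.4% over all promoters of the same length. A full CRE was found in the Hhip sequence, starting 75 bases upstream of the start site, and in no other member. On both strands, 1.79% of 32851 promoters of 300 bases (250 bases before and 50 after the start) held it. The letters of a Gli site, GACCACCCA, were found in 0.253% of these promoters and in none of the members, and their core CCACCCA, which is part of the longer motif, in 9.3% and again in none. The shorter letters TGACG, which are also part of the full CRE, was found in 20.8% of all promoters and in those of Ihh, Hhip, Gli3 and Pth1r. The RUNX letters TGTGGT occurred in 16.8% of all promoters and in that of Gli3 among the members. Of the 9 members, 8 had an entry among these promoters, and Gli1 had none. These matches describe letters in a window and were not tested against the expression data.

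Levels of different genes are compared per kilobase of exon. Averaged over the 30 libraries, Pth1r stood highest at 239 CPM per kilobase, above 98.9% of the 17378 genes that passed the filter on low counts. Ihh followed at 24.5 CPM per kilobase, then Smo at 13.6, Gli1 at 9.88 and Ptch1 at 4.97 CPM per kilobase. Gli3 and Gli2 were close to each other at 2.2 and 2.14 CPM per kilobase. Hhip at 0.407 and Pthlh at 0.391 CPM per kilobase were the least abundant members. The members also differed in how far they moved. Between the lowest and the highest library, Ihh spanned 836-fold (0.868 to 726 CPM), Hhip 298-fold, Gli1 33.9-fold and Pth1r 21.9-fold. Ptch1 spanned 7.61-fold, Gli2 4.50-fold, Smo 3.10-fold and Gli3 3.00-fold. For Hhip and Pthlh the lower end rested on 1 count.

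**Figure D1:**
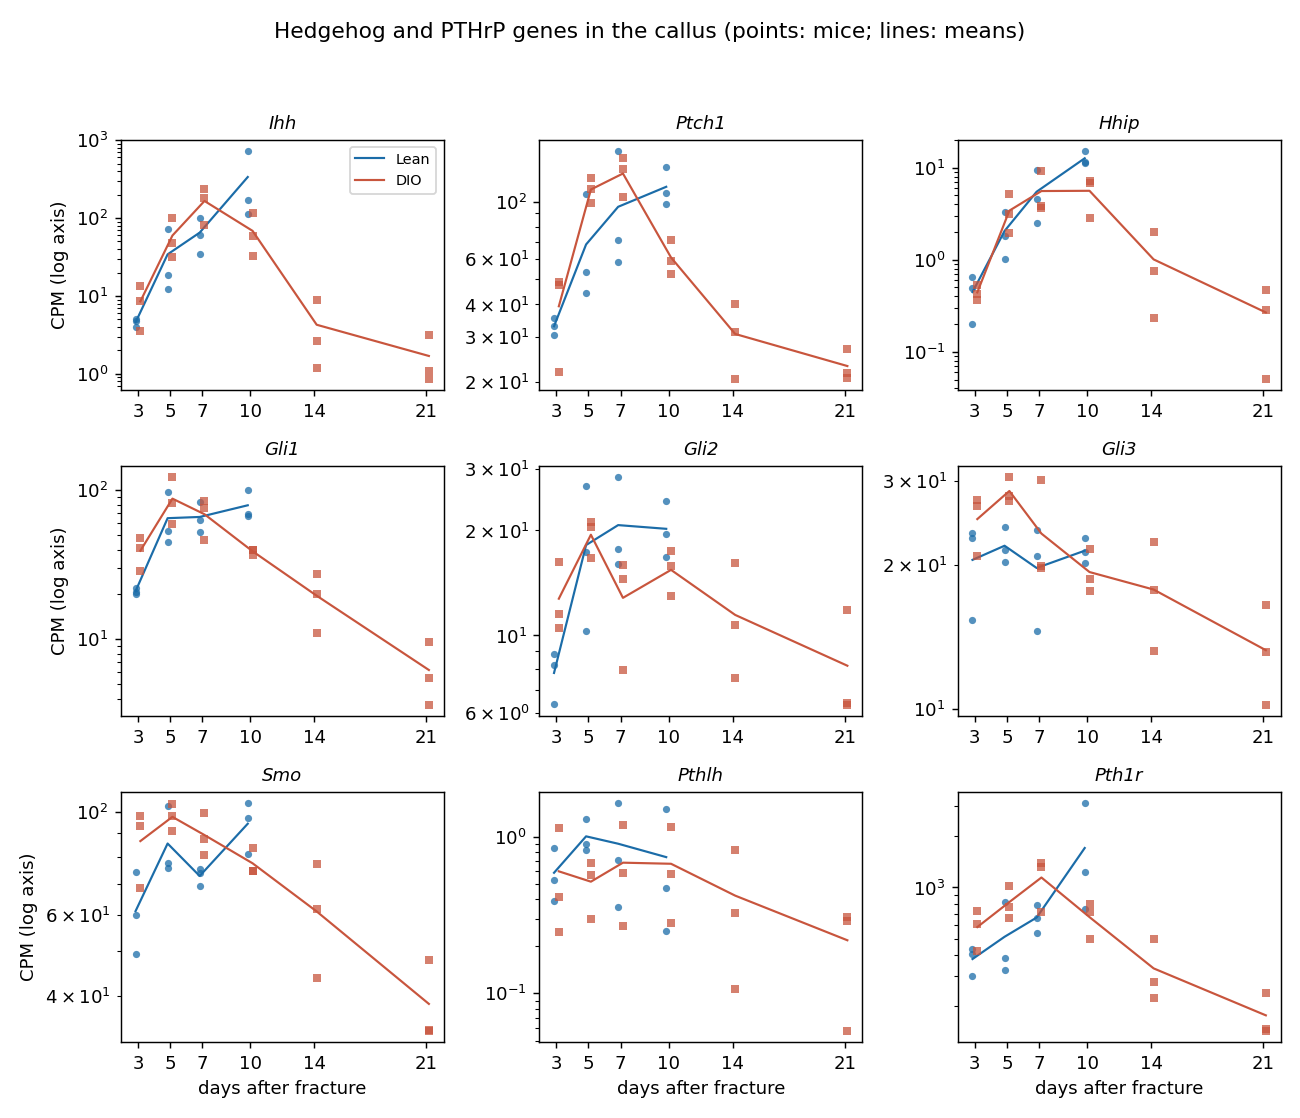
Level of each member (CPM, log axis) by day after fracture in lean (blue circles) and DIO (red squares) callus. Points are mice (n = 3 per group) and lines join group means. By group mean, Ihh, Ptch1, Hhip, Gli1, Smo and Pth1r were highest on d10 in lean mice, the last lean day analysed. In DIO mice Ihh, Ptch1 and Pth1r were highest on d7, and Gli1 and Smo on d5. Mean Hhip in DIO mice was highest on d10, at 5.61 CPM against 5.58 CPM on d7. The Ihh mean of DIO mice fell to 1.70 CPM on d21.

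Ihh (ENSMUSG00000006538; GRCm38 chromosome 1, 74945315 to 74951672, minus strand), the ligand, was low on d3 and climbed with the cartilage. In lean calli, it was at 5.03, 4.73 and 3.99 CPM on d3, at 12.4, 18.5 and 71.7 CPM on d5, at 60.1, 35.0 and 99.7 CPM on d7 and at 726, 171 and 111 CPM on d10. All 3 lean calli of d10 lay above all earlier lean calli. In DIO calli, Ihh was at 3.60, 8.62 and 13.3 CPM on d3, at 99.9, 47.6 and 31.2 CPM on d5, at 233, 82.1 and 181 CPM on d7 and at 32.3, 115 and 58.0 CPM on d10. It then stood at 2.67, 1.18 and 8.97 CPM on d14 and at 1.10, 3.13 and 0.868 CPM on d21. The DIO values of d14 and d21 overlapped each other and lay below all values of d5 to d10. The lean mean was 73.3-fold higher on d10 (336 ± 339 CPM, SD, n = 3) than on d3 (4.58 ± 0.534 CPM, SD, n = 3). Without the first lean callus of d10 the mean of that day was 141 CPM and the ratio 30.7-fold. The DIO mean was 97.4-fold higher on d7 (165 ± 76.7 CPM) than on d21 (1.70 ± 1.25 CPM). In falling order of their means, the 10 groups were lean d10, DIO d7, DIO d10, lean d7, DIO d5, lean d5, DIO d3, lean d3, DIO d14 and DIO d21, and every neighbouring pair overlapped in its mice.

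Ptch1 (ENSMUSG00000021466; chromosome 13, 63508328 to 63573598, minus strand), the receptor, rose over a narrower range. In lean calli, it was at 35.4, 33.0 and 30.5 CPM on d3, at 53.5, 44.3 and 107 CPM on d5, at 70.8, 58.6 and 157 CPM on d7 and at 136, 98.0 and 108 CPM on d10. In DIO calli, it was at 21.9, 47.5 and 48.7 CPM on d3, at 124, 112 and 98.7 CPM on d5, at 148, 104 and 133 CPM on d7, at 58.9, 52.7 and 70.7 CPM on d10, at 31.3, 20.6 and 40.3 CPM on d14 and at 20.7, 27 and 21.6 CPM on d21. All DIO calli of d5 and d7 lay above all DIO calli of the other days. In the order of its group means, from DIO d7 down to DIO d21, DIO d10 and DIO d3 were the only neighbours without overlap.

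Hhip (ENSMUSG00000064325; chromosome 8, 79965851 to 80058006, minus strand) encodes a membrane protein that binds and sequesters the ligand. In lean calli, it was at 0.643, 0.494 and 0.199 CPM on d3, at 1.01, 1.82 and 3.33 CPM on d5, at 4.56, 2.54 and 9.36 CPM on d7 and at 15.2, 11.5 and 11.2 CPM on d10. In DIO calli, it was at 0.420, 0.539 and 0.369 CPM on d3, at 3.16, 5.16 and 1.93 CPM on d5, at 9.28, 3.66 and 3.81 CPM on d7, at 2.83, 6.81 and 7.20 CPM on d10, at 0.764, 0.236 and 2.03 CPM on d14 and at 0.288, 0.464 and 0.0510 CPM on d21. The 3 lean calli of d10 held more Hhip than any of the other 27 calli. On d3 these levels stood for 4 to 14 counts per library, which limits their precision. Smo (ENSMUSG00000001761; chromosome 6, 29735503 to 29761365, plus strand), the transducer, moved least among the signalling components at the membrane. Lean calli held 74.1, 49.3 and 59.8 CPM on d3, at 77.8, 75.9 and 103 CPM on d5, at 69, 73.8 and 75.3 CPM on d7 and at 105, 81.3 and 97.2 CPM on d10. DIO calli held 68.4, 97.9 and 93.2 CPM on d3, at 97.9, 91.0 and 104 CPM on d5, at 87.4, 99.4 and 80.7 CPM on d7, at 83.5, 74.4 and 74.5 CPM on d10, at 61.8, 43.8 and 77.3 CPM on d14 and at 33.7, 48 and 33.8 CPM on d21. Every neighbouring pair of groups in its order overlapped.

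Gli1 (ENSMUSG00000025407; chromosome 10, 127329882 to 127341974, minus strand), an activator and a pathway target, was already high on d5. In lean calli, it was at 20.9, 22.3 and 20.0 CPM on d3, at 53.1, 45.3 and 96.8 CPM on d5, at 62.9, 52.3 and 83.8 CPM on d7 and at 101, 67.4 and 69.8 CPM on d10. In DIO calli, it was at 28.7, 41.2 and 48.1 CPM on d3, at 123, 59 and 82.0 CPM on d5, at 85.1, 46.4 and 76.0 CPM on d7, at 37.0, 40.1 and 40.0 CPM on d10, at 20.3, 11.1 and 27.5 CPM on d14 and at 3.63, 9.52 and 5.51 CPM on d21. The lean values of d3 lay below all later lean values, whereas the lean values of d5, d7 and d10 overlapped. The DIO values stepped down without overlap from d10 to d14 and from d14 to d21. Ordered by mean, neighbouring groups were separated between DIO d10 and lean d3 and between DIO d14 and DIO d21. Exons of Gm47200, an opposite-strand gene absent from the count table, cover 5.31% of the Gli1 exons. Those of Arhgap9, an opposite-strand gene that was counted, cover 62 bases. Whether the counting used strand is not given in the sources used here.

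Gli2 (ENSMUSG00000048402; chromosome 1, 118834132 to 119053619, minus strand), the main activator of the pathway, ran from 6.36 to 8.83 CPM in lean calli of d3 and from 10.3 to 28.5 CPM in those of d5 to d10. In DIO calli, it was at 10.5 to 16.2 CPM on d3, 16.7 to 21.1 CPM on d5, 7.98 to 15.9 CPM on d7, 13 to 17.4 CPM on d10, 7.55 to 16.1 CPM on d14 and 6.33 to 11.8 CPM on d21. The lean d3 values lay below all later lean values, and the DIO values of d5 lay above those of every other DIO day but d10. Gli3 (ENSMUSG00000021318; chromosome 13, 15463235 to 15730026, plus strand), which acts mostly as a repressor in the absence of ligand, stayed between 14.6 and 24.1 CPM in all 12 lean calli. Among DIO calli it ran from 20.9 to 27.3 CPM on d3, 27.3 to 30.6 CPM on d5, 19.7 to 30.2 CPM on d7, 17.7 to 21.7 CPM on d10, 13.2 to 22.4 CPM on d14 and 10.2 to 16.5 CPM on d21. Neighbouring groups overlapped throughout the order of Gli2 and of Gli3.

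Pthlh (ENSMUSG00000048776; chromosome 6, 147252101 to 147264183, minus strand), the PTHrP gene, was close to the limit of detection in every group. Its counts ran from 1 to 29 per library, and 2 of the 30 libraries had fewer than 3. Lean calli held 0.389 to 0.848 CPM on d3, 0.821 to 1.29 CPM on d5, 0.354 to 1.64 CPM on d7 and 0.251 to 1.5 CPM on d10. DIO calli held 0.246 to 1.14 CPM on d3, 0.300 to 0.678 CPM on d5, 0.267 to 1.19 CPM on d7, 0.282 to 1.15 CPM on d10, 0.107 to 0.826 CPM on d14 and 0.0577 to 0.306 CPM on d21. No neighbouring pair of groups in the order of means was separated. The other ligand of the receptor, Pth, had 0 counts in all 30 libraries, which allows at most 3 counts in each.

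Pth1r (ENSMUSG00000032492; chromosome 9, 110722085 to 110747145, minus strand), the receptor of PTHrP and of parathyroid hormone, was high from d3 onward. In lean calli, it was at 404, 301 and 434 CPM on d3, at 327, 387 and 825 CPM on d5, at 664, 538 and 794 CPM on d7 and at 3139, 1233 and 750 CPM on d10. In DIO calli, it was at 423, 606 and 726 CPM on d3, at 1027, 666 and 770 CPM on d5, at 1317, 717 and 1400 CPM on d7, at 498, 798 and 713 CPM on d10, at 280, 223 and 500 CPM on d14 and at 143, 240 and 147 CPM on d21. Every neighbouring pair in the order of its group means overlapped, and the lean mean of d10, 1707 ± 1263 CPM (SD, n = 3), was 991 CPM without the first mouse. Exons of Myl3, a muscle gene on the opposite strand, cover 3.25% of the Pth1r exons. Counts per library for Pth1r were never below 2488.

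The time course in lean mice asked when each gene changed during normal healing. Between any of d3, d5, d7 and d10, 6 of the 9 members differed by edgeR's quasi-likelihood test with Benjamini-Hochberg adjustment over 16471 genes, of which 19% were called. Adjusted p was 0.0016 for Hhip, 0.00316 for Ihh, 0.00469 for Gli1, 0.0207 for Pth1r, 0.0253 for Ptch1 and 0.0317 for Gli2. Gli3, Smo and Pthlh had adjusted p of 0.918, 0.0628 and 0.777. The call of Ptch1 was lost when any of the 3 mice of d3 was left out (highest adjusted p 0.0816). That of Gli2 was lost without any mouse of d3 or without the second mouse of d10 (highest 0.126), and that of Pth1r without the second mouse of d3 or the first of d10 (highest 0.0727). The count was 3 without the second mouse of d3.

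From d3 to d10, 7 members rose in lean callus, against 29.3% of all genes called in either direction. Ihh rose by 6.22 ± 0.90 (log2 fold change ± SE), Hhip by 4.84 ± 0.60, Pth1r by 2.19 ± 0.49, Gli1 by 1.94 ± 0.28, Ptch1 by 1.81 ± 0.38, Gli2 by 1.39 ± 0.33 and Smo by 0.65 ± 0.17. Adjusted p ran from 0.000364 for Hhip to 0.0152 for Smo. Gli3 and Pthlh had log2 fold changes of 0.08 ± 0.21 and 0.37 ± 0.69. Without the first mouse of d10, Ihh still rose by 4.97 and Pth1r by 1.41, and both kept their calls. Only Smo lost its call in any of these refits, without the second mouse of d3 (log2 fold change 0.50).

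The single steps in lean mice carried fewer calls. From d3 to d5, only Gli1 passed the threshold (log2 fold change 1.63 ± 0.28, adjusted p = 0.0265 by edgeR), where 0.449% of genes were called. Ihh, Hhip and Gli2 had log2 fold changes of 2.90 ± 0.79, 2.21 ± 0.59 and 1.23 ± 0.33 for that step, with adjusted p of 0.125, 0.116 and 0.119, and the Ihh value was 1.74 without the third mouse of d5. The Gli1 call was lost without any of the 3 mice of d3, the first or the third of d5 or the first of d7, at log2 fold changes of 1.22 to 1.75. Without the first mouse of d10, 2 members were called, Ihh being the second. From d3 to d7, Ihh (3.84 ± 0.82), Hhip (3.63 ± 0.59) and Gli1 (1.67 ± 0.28) rose, against 1.67% of genes. Ptch1 and Gli2 had adjusted p of 0.0642 and 0.0543 there. This count of 3 ran from 0 without the second mouse of d3 to 5 without the third of d5 or the first of d10. It was 1 without the first mouse of d3 or the third of d7, and 2 without the third of d3 or the first or second of d7. The Ihh call was also lost without the second mouse of d5.

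From d5 to d7 in lean mice, 0 of 9 members and 0% of genes were called by edgeR, with 1 member and 926 genes at an unadjusted p under 0.05, and DESeq2 called 0 members and 37 genes. From d7 to d10, 0 members were called, where 2.73% of genes were. At an unadjusted p under 0.05, 4 members passed, and DESeq2 called 2, Ihh and Pth1r. Ihh had a log2 fold change of 2.38 ± 0.75 and Pth1r one of 1.37 ± 0.47 for that step, with adjusted p of 0.0865 and 0.107. Both values depended on 1 mouse, and without the first callus of d10 they were 1.13 and 0.59, while without the third they were 2.79 and 1.72 and passed the threshold. The sum of chondrocyte markers moved with these changes in lean mice, from 1416 to 2332 CPM on d3 to 17160 to 84000 CPM on d10, and all 12 chondrocyte genes rose. The sum of 8 leukocyte markers was at 1961 to 2750 CPM on d3 and at 843 to 1410 CPM on d10, and 6 of the 8 fell. Their part in the changes of the members was not tested.

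The DIO time course reached d21, so both the rise and the decline were covered. Across the 6 days, 8 of the 9 members differed, all but Pthlh, against 59.1% of 16995 genes. Adjusted p by edgeR was 1.77e-06 for Ptch1, 3.96e-06 for Ihh, 4.56e-06 for Gli1, 5.38e-05 for Pth1r, 7.88e-05 for Hhip, 0.000233 for Smo, 0.00493 for Gli3, 0.0389 for Gli2 and 0.522 for Pthlh. The Gli2 call was lost without the first or the third mouse of d5, d10 or d21 (highest adjusted p 0.0957). From d3 to d5, Ihh (2.81 ± 0.67), Ptch1 (1.5 ± 0.26) and Hhip (2.91 ± 0.68) rose, against 1.68% of genes. Ptch1 kept its call in every refit without 1 mouse. Ihh and Hhip lost theirs without any mouse of d3 or the first or second of d5, and Ihh also without the third of d10 or the first of d14, at log2 fold changes of 2.21 to 3.27 for Ihh and 2.49 to 3.09 for Hhip.

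From d3 to d7 in DIO mice, Ihh (4.30 ± 0.71), Hhip (3.64 ± 0.68) and Ptch1 (1.73 ± 0.27) rose, against 7.3% of genes, and these 3 kept their calls without any 1 mouse. Gli1 had a log2 fold change of 0.84 ± 0.34 (adjusted p = 0.146 by edgeR) for the same interval. Pth1r, at 0.99 ± 0.32, did not pass the threshold, but did without the second mouse of d7 or the third of d14. With all mice it passed by DESeq2 (0.982, adjusted p = 0.0247) and by edgeR with no filter but 1 count (0.968, adjusted p = 0.0424). From d5 to d7, 0 members were called by edgeR or DESeq2, 1 at an unadjusted p under 0.05, and 0.0177% of genes were called. The 12 chondrocyte genes all rose from d3 to d7 in DIO callus (median log2 fold change 6.04). Their sum ran from 1226 to 2793 CPM on d3 and from 23662 to 51354 CPM on d7.

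The decline in DIO callus was followed day by day, and whether members differed in their steps was not tested. From d7 to d10, Ptch1 fell by 1.09 ± 0.26 on the log2 scale (adjusted p = 0.00933 by edgeR), and it was the 1 member called where 13% of genes were. Ihh had a log2 fold change of -1.29 ± 0.62, Gli1 of -0.84 ± 0.34, Pth1r of -0.79 ± 0.32 and Hhip of -0.01 ± 0.57 for that step. Without the second mouse of d10, Ptch1 had a log2 fold change of -1.0 and lost its call. From d10 to d14, Ihh fell by 3.99 ± 0.71 (adjusted p = 0.026 by edgeR), the 1 member called, against 0.759% of genes. Hhip, Pth1r, Gli1 and Ptch1 had log2 fold changes of -2.46 ± 0.63, -1.0 ± 0.33, -0.99 ± 0.35 and -0.98 ± 0.26. That call was lost without the second or the third mouse of d10 or the first or second of d14, at log2 fold changes of -4.10 to -3.39. Without the third mouse of d14, 4 members were called, with Ptch1 at -1.21, Hhip at -3.44 and Pth1r at -1.40, and without the first mouse of d3 2 were.

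From d14 to d21, Gli1 (-1.64 ± 0.37) and Smo (-0.65 ± 0.19) fell (adjusted p 0.00628 and 0.0262 by edgeR), where 19.6% of genes were called. Gli1 kept its call in every refit without 1 mouse. Smo lost its call without the first or the third mouse of d14 or of d21, which left 1 member called. Without the second mouse of d14, 4 members were called, with Hhip at -2.38 and Pth1r at -1.13, and Pth1r was also called without the second mouse of d7 (-0.90) or of d21 (-1.19). Over the whole decline, from d7 to d21, 7 members fell, against 47.1% of genes called in either direction. Log2 fold changes were -6.61 ± 0.82 for Ihh, -4.38 ± 0.73 for Hhip, -3.47 ± 0.38 for Gli1, -2.69 ± 0.34 for Pth1r, -2.47 ± 0.27 for Ptch1, -1.21 ± 0.19 for Smo and -0.81 ± 0.22 for Gli3. Adjusted p ran from 2.52e-06 for Ptch1 and Gli1 to 0.00605 for Gli3. Gli2, at -0.65 ± 0.31, passed the threshold only without the second mouse of d7 or of d21. Pthlh was at -1.6 ± 0.84, and at -0.92 without the first mouse of d7. All 12 chondrocyte genes fell as well (median -6.97), and muscle markers were at 406, 12973 and 2527 CPM in the 3 calli of d21. The summed adipocyte markers were at 866 to 973 CPM on d21 against 146 to 179 CPM on d7. The 8 leukocyte markers all rose, from a sum of 755 to 1467 CPM on d7 to 2078 to 2980 CPM on d21. The part of these other cells in the decline was not tested.

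The diets were compared within each day to ask whether obesity altered the loop. No member passed the threshold on d3, d5, d7 or d10. On d3, 0 of 7 members tested and 0% of 15772 genes were called by edgeR, with 4 members and 2374 genes at an unadjusted p under 0.05, and DESeq2 called 1 member, Gli1, and 728 genes. Hhip and Pthlh were too low to be tested there. Gli1 was higher in all 3 DIO calli of d3 than in any lean callus (log2 difference 0.88 ± 0.18, adjusted p = 0.113 by edgeR), and Gli2 likewise (0.70 ± 0.22, adjusted p = 0.21). Such separation was seen for 2 of 9 members, and for 20.5% of the 17378 genes.

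On d5, 0 of 9 members were called by edgeR or DESeq2 and 2 had an unadjusted p under 0.05, where 1.08% of genes were called. All members but Pthlh had a positive log2 difference, from 0.10 ± 0.30 for Gli2 to 0.80 ± 0.66 for Ihh, and Pthlh had one of -0.93 ± 0.45. The Ihh value ran from 0.21 without the first DIO mouse to 1.93 without the third lean mouse. Without the third lean mouse of d5, Ptch1 and Pth1r passed the threshold with log2 differences of 1.18 and 1.19. That mouse had 14790 CPM of chondrocyte markers against 3637 and 4881 CPM in the other lean calli of the day, and 5066 CPM of muscle markers against 20295 and 14384 CPM. Gli3 (higher in DIO) and Pthlh (lower in DIO) did not overlap between the diets, 2 of 9 members against 22.5% of genes. The leukocyte sum was lower in every DIO callus of d5 (857 to 954 CPM) than in any lean callus (1616 to 2255 CPM), and 5 of its 8 genes were called lower. On d3 and d7 it was also lower without overlap, at 980 to 1777 against 1961 to 2750 CPM and at 755 to 1467 against 1630 to 2098 CPM. Its part in the diet differences was not tested.

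On d7, 0 of 9 members were called by edgeR, with 2 at an unadjusted p under 0.05, where 2.32% of genes were called. DESeq2 called 2, Ihh and Pth1r. Ihh had a mean of 165 ± 76.7 CPM in DIO and 64.9 ± 32.6 CPM in lean callus (SD, n = 3 each), a log2 difference of 1.36 ± 0.42 (adjusted p = 0.142 by edgeR), and the ranges overlapped. The chondrocyte sum was at 23662 to 51354 CPM in DIO and 7645 to 21033 CPM in lean callus. Gli2 (lower in DIO) and Smo (higher in DIO) did not overlap, 2 of 9 members against 21.3% of genes.

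On d10, all 8 members tested had a negative log2 difference, and 0 of these and 0% of 15341 genes were called by edgeR. At an unadjusted p under 0.05, 5 members and 1082 genes passed, and DESeq2 called 2 members, Ptch1 and Gli1, and 47 genes. Ptch1, Hhip and Gli1, often read as output of the pathway, were lower in every DIO callus than in any lean callus, 3 of 9 members against 14% of genes. Pthlh, which hedgehog signalling also induces in the growth plate, overlapped between the diets (means 0.670 in DIO and 0.739 CPM in lean callus). Mean levels were 60.8 against 114 CPM for Ptch1, 5.61 against 12.7 CPM for Hhip and 39.0 against 79.4 CPM for Gli1, with log2 differences of -0.90 ± 0.19, -1.16 ± 0.36 and -1.02 ± 0.19 (adjusted p = 0.686 for each by edgeR). Ihh had a log2 difference of -2.29 ± 0.71 and Pth1r of -1.34 ± 0.48, and without the first lean mouse these were -1.05 and -0.57. The chondrocyte sum of the DIO calli, 5621 to 10796 CPM, lay below the lean range of 17160 to 84000 CPM, and their muscle sum, 19600 to 26885 CPM, lay above the lean range of 1103 to 15365 CPM. The part of tissue composition in these differences was not tested.

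**Figure D2:**
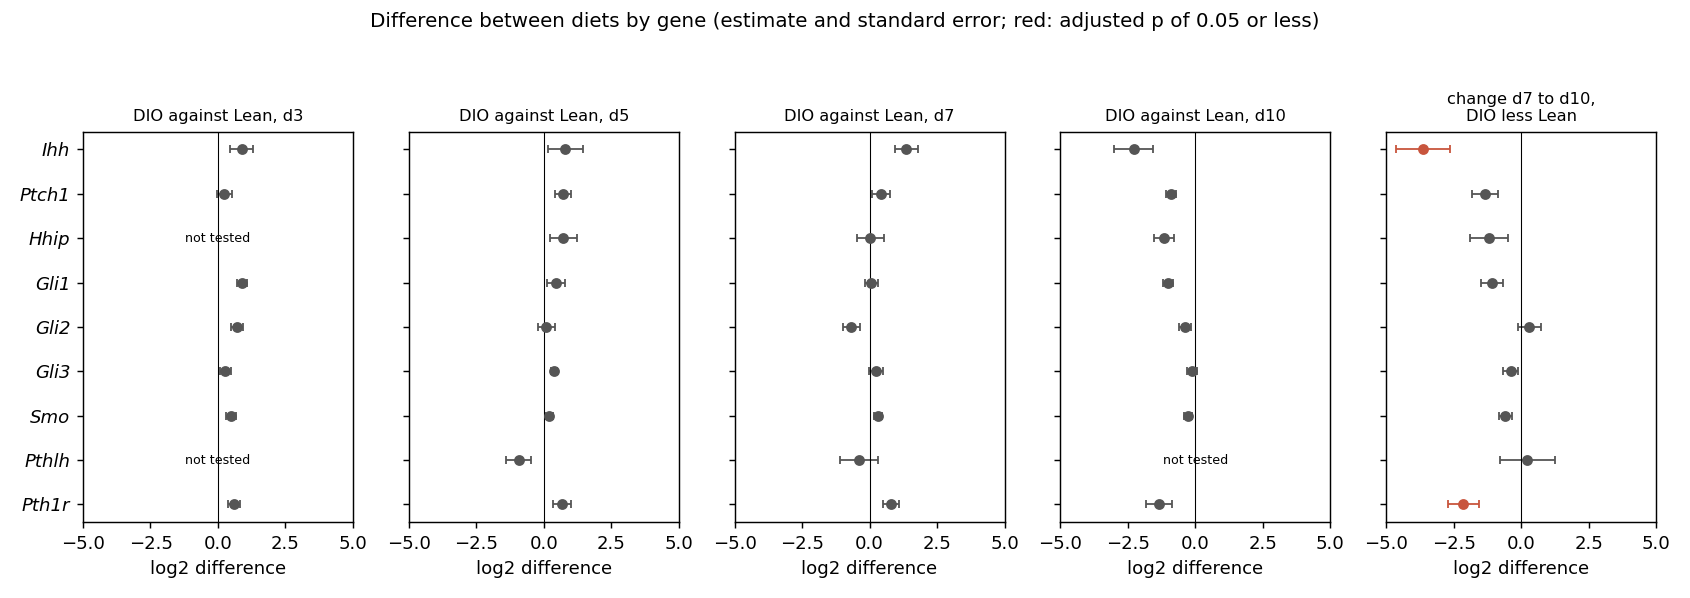
Log2 difference between DIO and lean callus on each day, and the difference between the diets in the change from d7 to d10 (right). Points are edgeR estimates and bars are standard errors, and red marks an adjusted p of 0.05 or less. Within single days no member passed the threshold, whereas the change from d7 to d10 differed for Ihh (-3.65) and Pth1r (-2.14).

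Whether the diets differed in their change from d7 to d10 was then tested. The change from d7 to d10 differed between the diets for 2 of 9 members, where 5.07% of 17057 genes were called. For Ihh the difference in change was -3.65 ± 0.99 on the log2 scale (adjusted p = 0.0376 by edgeR), since Ihh went from a mean of 64.9 to 336 CPM in lean callus and from 165 to 68.4 CPM in DIO callus. For Pth1r it was -2.14 ± 0.58 (adjusted p = 0.0365), with means from 665 to 1707 CPM in lean and from 1145 to 670 CPM in DIO callus. Without the first lean callus of d10 the lean means of that day were 141 CPM for Ihh and 991 CPM for Pth1r. Ptch1, Hhip and Gli1 had values of -1.34 ± 0.47, -1.20 ± 0.70 and -1.09 ± 0.41, with adjusted p of 0.0978, 0.312 and 0.116. The Hhip value ran from -1.83 without the third lean mouse of d7 to -0.62 without the first DIO mouse of d7. Gli2 and Pthlh had values of 0.30 ± 0.42 and 0.24 ± 1.03.

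Both calls depended on single mice. Without the first lean mouse of d10, Ihh was at -2.39 and Pth1r at -1.35, and neither passed the threshold. The Ihh call was also lost without the first or second lean mouse of d7, the first DIO mouse of d7, or the first or the third DIO mouse of d10 (-3.59 to -3.31). The Pth1r call was lost without the first or second lean mouse of d7, the first or the third DIO mouse of d7 or any DIO mouse of d10 (-2.28 to -1.96). Without the third lean mouse of d7, 3 members were called, with Ptch1 at -1.90. Of the 12 chondrocyte genes, 9 were called in the same test, all lower, with a median of -4.87.

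When any change of the diet difference over d3 to d10 was tested, 0 of 9 members were called by edgeR, with 6 at an unadjusted p under 0.05, where 1.65% of genes were called. DESeq2 called 2. Gli1 had the smallest adjusted p, 0.0557. Without the third lean mouse of d5, 3 members were called, without the third lean mouse of d10 2, and without the second lean mouse of d10, the first DIO mouse of d3 or the second DIO mouse of d5 1. In the fit of a curve in the day, the 3 terms of diet were called for Gli1 (adjusted p = 0.0398) and Pth1r (adjusted p = 0.0369 by edgeR), 2 of 9 members, against 8.13% of genes. These calls were fragile. Leaving out 1 mouse raised the adjusted p of Gli1 above the threshold for 15 of the 24 mice (highest 0.0755) and that of Pth1r for 14 of the 24 (highest 0.0785). The count of members called was 0 without any one of 12 mice, namely the second lean mouse of d3, the first and second of d5, the first of d7 and the first of d10, and the second and the third DIO mice of d3, the third of d5, the first of d7 and all 3 of d10. It was 5 without the third lean mouse of d5.

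Ihh and its targets were then set side by side in single calli. Over the 30 libraries, the Pearson correlation of log2 CPM with Ihh was 0.937 for Hhip, 0.932 for Ptch1, 0.930 for Pth1r, 0.873 for Gli1, 0.763 for Smo, 0.709 for Gli2, 0.482 for Gli3 and 0.247 for Pthlh. The libraries share days, diets and tissue composition, so these values describe a common course. Ihh also had a correlation of 0.964 with the mean of the chondrocyte list, against 0.865 with the hypertrophic list and 0.378 with the osteoblast list. The chondrocyte list was also followed by Ptch1 (0.961), Hhip (0.898), Pth1r (0.883) and Gli1 (0.863). With the leukocyte and adipocyte lists its correlation was -0.740 and -0.647, and that of Pth1r was -0.800 and -0.699. In lean callus of d10, Ihh differed 6.53-fold between the highest and the lowest mouse, while Ptch1 differed 1.39-fold, Hhip 1.35-fold and Gli1 1.5-fold. The first of these calli, which stood apart, had 726 CPM of Ihh, and the others had 171 and 111 CPM. In lean callus of d7, Ihh differed 2.85-fold, Ptch1 2.68-fold, Hhip 3.68-fold and Gli1 1.6-fold. At a similar level of Ihh, a pair of calli differed in their targets. The second DIO callus of d10 had 115 CPM of Ihh and the third lean callus of d10 had 111 CPM. Ptch1 stood at 52.7 CPM in the former and 108 CPM in the latter, Hhip at 6.81 and 11.2 CPM and Gli1 at 40.1 and 69.8 CPM. Another DIO callus, the first of d5, had 99.9 CPM of Ihh with 124 CPM of Ptch1, 3.16 CPM of Hhip and 123 CPM of Gli1. These calli were chosen after the values were seen and have no replicate check.

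**Figure D3:**
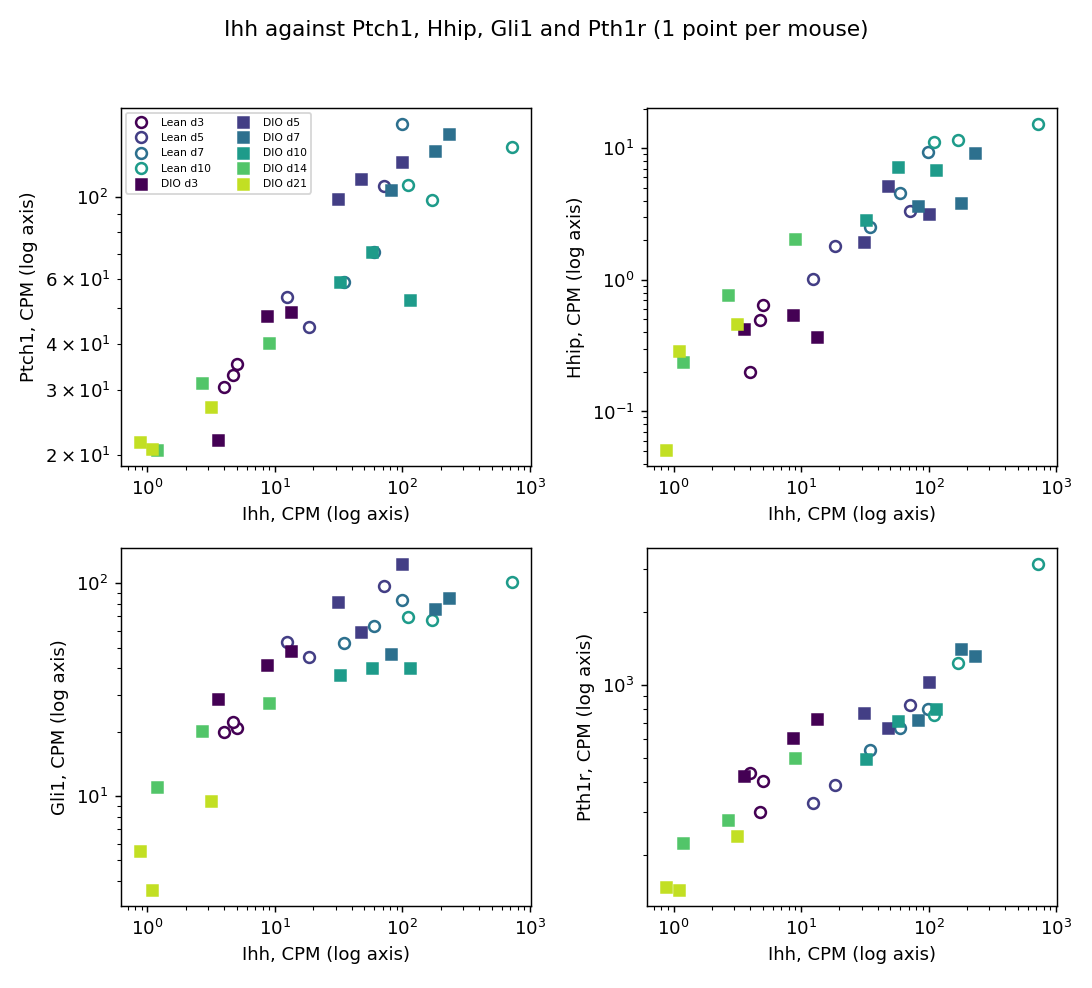
Level of Ptch1, Hhip, Gli1 and Pth1r (CPM, log axis) against the level of Ihh (CPM, log axis) in each of the 30 calli. Open circles are lean and filled squares are DIO calli, and colours run from d3 (dark) to d21 (light). All 4 genes tended to be higher where Ihh was higher (Pearson correlation of log2 CPM 0.873 to 0.937), but not in every callus. The second DIO callus of d10, with 115 CPM of Ihh, had 52.7 CPM of Ptch1 and 40.1 CPM of Gli1. The lean callus with 726 CPM of Ihh had 136 CPM of Ptch1, within the range of calli with less Ihh.

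Set against the amount of cartilage RNA, Ihh changed far less. Its log2 CPM less the mean log2 CPM of the 12 chondrocyte genes ran from -3.81 to -1.40 over all calli, although Ihh itself spanned 836-fold. In lean callus this difference averaged -2.61 ± 0.02 on d3 (SD, n = 3), then -2.84 ± 0.12 on d5, -2.59 ± 0.34 on d7 and lastly -1.87 ± 0.33 on d10. In DIO callus it averaged -2.24 ± 0.36 on d3, -3.36 ± 0.46 on d5, -3.16 ± 0.34 on d7, -1.53 ± 0.23 on d10, -3.24 ± 0.54 on d14 and -3.27 ± 0.53 on d21. Relative to the chondrocyte genes Ihh was thus highest on d10 in both diets, and the 3 DIO calli of d10 lay above all other DIO calli. Ptch1 followed another course on this scale, from 0.05 ± 0.43 on d3 to -3.41 ± 0.30 on d7 and 0.61 ± 0.84 on d21 in DIO callus. Pth1r went from 3.99 ± 0.35 to -0.30 ± 0.01 and back to 3.51 ± 0.66 on the same days. No test was run on these differences, and a prior count of 2 sets the values of the lowest libraries.

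**Figure D4:**
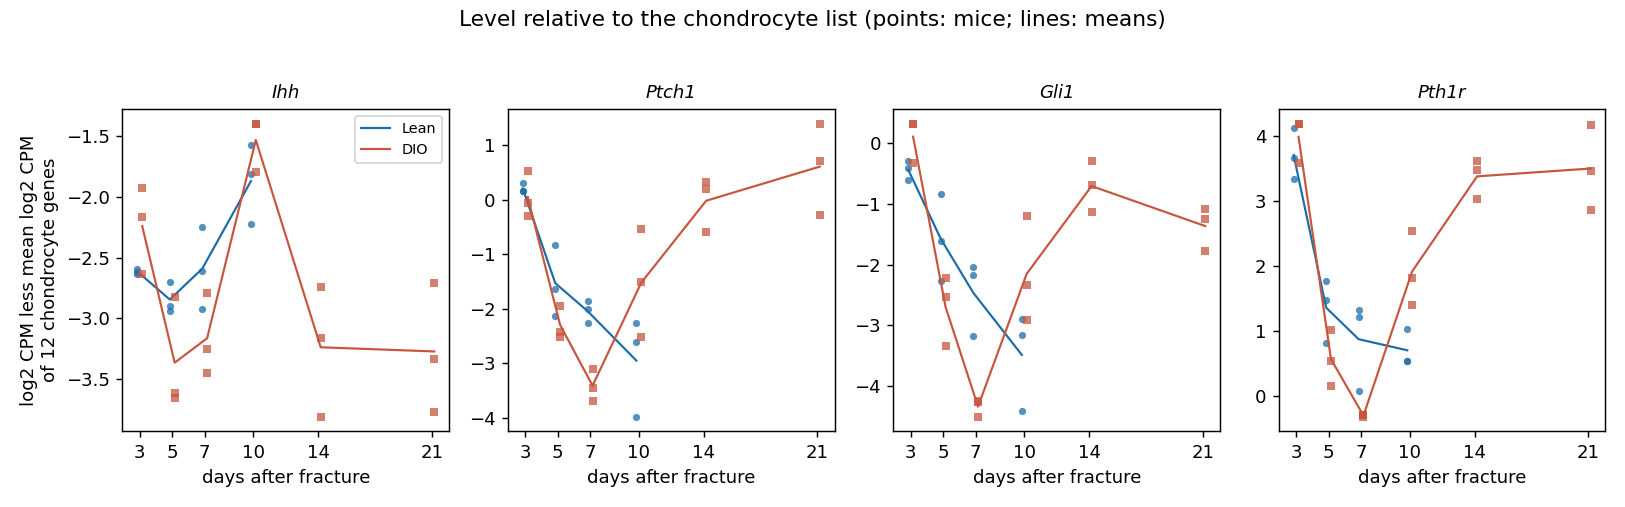
Log2 CPM of Ihh, Ptch1, Gli1 and Pth1r less the mean log2 CPM of 12 chondrocyte genes, by day after fracture. Points are mice (lean blue circles, DIO red squares, n = 3 per group) and lines join means. Ihh ran from -3.81 to -1.40 over all calli and had its highest mean on d10 in both diets (-1.87 and -1.53). The means of the other 3 genes were lowest on d7 in DIO callus.

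The genes whose log2 CPM followed a member most closely over the 30 libraries were picked by Pearson correlation among 17378 genes. For Ihh they were Comp (0.972), Col9a3 (0.962), Dhx58os (0.962), Col9a2 (0.961) and Col9a1 (0.960). Comp and the 3 Col9 genes encode cartilage matrix proteins, and Dhx58os is an antisense gene whose reads cannot be told from those of its partner without strand. For Gli1 they were Col16a1 (0.943), P3h3 (0.941), Olfml3 (0.936), Cpt1c (0.934) and Plxnb1 (0.933), none of which is on the chondrocyte list. For Pth1r they were Plcd1 (0.965), Osbpl5 (0.960), Cspg4 (0.960), Cox4i2 (0.957) and Dap (0.956). For Pthlh the closest genes, Maf (0.702), Gm15445 (0.701), Efhd1 (0.679), Ephx3 (0.675) and Stum (0.671), were less alike.

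Among the other hedgehog ligands, Shh had 0 counts in 27 of the 30 libraries and at most 7 counts, and Dhh ran from 0.115 CPM in a DIO callus of d21 to 3.9 CPM in a DIO callus of d3. Of the 33 further genes listed for the hedgehog pathway, 11 of 30 tested were called in lean callus from d3 to d10, 9 higher and 2 lower, against 29.3% of all genes. Their median log2 fold change was 0.19 against 0.02 over all genes. Arrb2, which binds active Smo, fell by 1.62 ± 0.25, and Evc, a positive regulator at the cilium, and Scube1, of a family that helps release the ligand, rose by 1.03 ± 0.16 and 4.49 ± 0.76. From d7 to d21 in DIO callus, 22 of 31 tested were called, 4 higher and 18 lower, against 47.1% of all genes, with a median of -1.04 against 0.00 over all genes. Log2 fold changes were -3.98 ± 0.36 for Gpc3, a glypican that binds hedgehog, -2.94 ± 0.31 for Scube3 and -2.04 ± 0.26 for Hhat, which acylates the ligand. In the DIO rise from d3 to d7, 6 of 31 were called, against 7.3% of all genes, with Scube3 at 2.2 ± 0.30, Scube1 at 3.07 ± 0.52 and Gpc3 at 1.70 ± 0.31.

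In the same list, 4 of 31 genes differed between the diets in their change from d7 to d10, all lower in DIO, where 5.07% of all genes were called. Scube3 was at -3.61 ± 0.74, Scube1 at -3.52 ± 0.87 and Nkx3-2, a repressor of hypertrophy in chondrocytes, at -4.55 ± 1.13. Nkx3-2 had at most 25 counts in any library and was also higher in DIO callus of d7 (log2 difference 2.85 ± 0.59, adjusted p = 0.041 by edgeR), the 1 gene of the list called there, while Arrb2 was the 1 called on d5 (-0.98 ± 0.16, adjusted p = 0.045). Of the 19 further genes listed for PTHrP signalling, 5 of 17 tested were called in lean callus from d3 to d10 and 13 of 17 in DIO callus from d7 to d21, against 29.3% and 47.1% of all genes. Cdkn1c, a cell cycle inhibitor of hypertrophic chondrocytes, rose by 2.41 ± 0.38 in the former and fell by 3.21 ± 0.38 in the latter. Its change from d7 to d10 differed between the diets by -2.17 ± 0.53 (adjusted p = 0.0217 by edgeR), and that of Rgs2, a regulator of G protein signalling, by 1.37 ± 0.37 (adjusted p = 0.035). Sost, the sclerostin gene of osteocytes, was lower in DIO than in lean callus of d7 (log2 difference -1.65 ± 0.22, adjusted p = 0.0118), as was Rgs2 (-0.75 ± 0.16, adjusted p = 0.0437). Sik1, of a kinase family inhibited by cAMP signalling, fell by 1.00 ± 0.23 in lean callus from d3 to d10. Pth2r and Lrp2, a second receptor of the hormone family and a megalin that binds Shh, had at most 8 and 4 counts in any library.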

How the data were processed

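Callus RNA of 30 mice (3 per diet and day) was sequenced from stranded poly(A) libraries. The authors aligned trimmed reads to GRCm38 with HISAT2 2.1.0, made gene counts with HTSeq and deposited them as raw counts, without normalization. The HTSeq strand setting and annotation are not given in the sources used here. Symbols and positions came from GENCODE M21, and all 9 members matched.

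From these counts, library factors (TMM), the filter on low counts (filterByExpr) and the two-sided quasi-likelihood F-test were computed with edgeR 4.0.16 in R 4.3.3. P-values were adjusted by Benjamini-Hochberg over all genes tested (threshold 0.05), and an SE is the log2 fold change divided by the root of F. Lean days were fitted together (12 libraries), DIO days together (18), each day separately for diet (6), and the diet difference over d3 to d10 in 24 libraries, where the time course used polynomials of degree 2. Correlations used log2 CPM with a prior count of 2. Total counts limit the lowest genes, and 3 counts was taken as the detection limit. That limit covers counting error only, whereas the SDs and SEs include the spread between mice. Replicates of 1 group were checked for duplicates (chi-square per degree of freedom 12.8 to 148), and none were found. The code of the model fits was tested on simulated counts for part of the comparisons, and the other steps were not.

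The members and lists were chosen with earlier results of these data known. All 9 members are named. From each pathway list the genes called are named in order of adjusted p, up to 3 per comparison, with Shh, Dhh and Pth. From the marker lists, Col2a1, Col10a1, Bglap, genes at 0 and the other keratinocyte genes are named. For Ihh, Gli1, Pthlh and Pth1r the 5 genes most alike are named. P-values test differences between groups against the spread between mice estimated in each fit. Replicate numbers follow the order of the samples, since their labels give none, and number different mice. Deviations from the group means were correlated for same-numbered mice, and every r exceeded 0.1 in 1 comparison only, lean d7 against d5 (0.206 to 0.277), where the blocked fit also called 0 members. Alternatives were DESeq2 1.42.0, RLE factors, other filters, the replicate block, all 30 libraries in 1 fit and each mouse left out in turn.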

Additional observations from a re-analysis of the deposited data

Results flagged for a closer look

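The change from d7 to d10 differed between lean and DIO callus for 2 members, by a test of that difference in edgeR over the 24 libraries of d3 to d10. Ihh was at -3.65 ± 0.99 (log2, DIO less lean, SE; adjusted p = 0.0376), and Pth1r was at -2.14 ± 0.58 (adjusted p = 0.0365). The first lean callus of d10 had the highest level of both genes and of the chondrocyte markers, and without it the values were -2.39 for Ihh and -1.35 for Pth1r, below the threshold. The mean Ihh level rose in lean and declined in DIO callus over these days.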

How the results depend on the processing

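For single members, 125 values were recomputed under 2529 alternatives in all. They were the log2 values at least as large as their SE and the called tests of several terms. Log2 values smaller than their SE were left out, so the changes of sign cover the larger values only. Of the 2529 alternatives, 2363 kept their direction and side of the threshold, 103 lost a call, 61 gained one and 2 changed sign. RLE factors and a filter of 0.5 CPM moved no count of members called. DESeq2 called 4 members for lean d5 against d3, 2 for lean d10 against d7, 5 for lean d7 against d3, 4 for DIO d14 against d10, 4 for DIO d21 against d14, 1, 2 and 2 for the diets on d3, d7 and d10, 2 for any change of the diet difference and 4 for the time course. With no filter but 1 count, these counts were 5 for lean d7 against d3, 3 for DIO d14 against d10, 1 each for the diets on d3, d7 and d10 and 3 for any change of the diet difference. With all 30 libraries in 1 fit, they were 2 for lean d10 against d7, 5 for lean d7 against d3 and 0 for DIO d14 against d10. The replicate numbers follow the order of the samples and mark different mice. Apart from lean d7 against d5 the correlations gave no pairing (each mouse correlated best with its own number there and for DIO d14 against d10). With the replicate block, the counts were 2 for lean d5 against d3, 5 for lean d7 against d3, 1 for DIO d5 against d3, 1 for the diets on d7, 1 for any change of the diet difference and 1 for the change from d7 to d10, and no other count of members moved by over 1.5 times.

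Without 1 mouse, the counts of members ran from 3 to 6 for any lean difference, 0 to 2 for lean d5 against d3 and d10 against d7, 0 to 5 for lean d7 against d3, 6 to 7 for lean d10 against d3, 7 to 8 for any DIO difference and d21 against d7, 1 to 3 for DIO d5 against d3, 0 to 1 for d10 against d7, 0 to 4 for d14 against d10, 1 to 4 for d21 against d14 and 3 to 4 for d7 against d3. They ran from 0 to 2 for the diets on d5, 0 to 3 for any change of the diet difference and the change from d7 to d10, and 0 to 5 for the time course, and were 0 throughout for the diets on d3, d7 and d10 and for lean and DIO d7 against d5. Ptch1 for lean d7 against d5 ran from -0.0693 without the third mouse of d7 to 0.964 without the third of d5, and Pthlh for DIO d21 against d14 from -1.35 without the third mouse of d14 to 0.0299 without the second, so both changed sign. The cause of these changes was not tested.

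Over all genes, DESeq2 called more than edgeR in each of these comparisons: 4847 against 3132 for any lean difference, 605 against 74, 37 against 0, 1827 against 450 and 840 against 275 for lean d5 to d3, d7 to d5, d10 to d7 and d7 to d3, 575 against 285, 346 against 3 and 552 against 129 for DIO d5 to d3, d7 to d5 and d14 to d10, 728 against 0, 1150 against 170, 944 against 366 and 47 against 0 for the diets on d3, d5, d7 and d10, and 1151 against 282, 1496 against 865 and 2487 against 1386 for the 3 tests of the diet difference over days. With no filter, 169, 478, 271 and 329 genes were called for lean d5 to d3 and DIO d5 to d3, d7 to d5 and d14 to d10, 515, 565, 724 and 29 for the diets and 503 for any change of the diet difference. With 0.5 CPM, 1 gene was called for the diets on d3. With the replicate block, 199, 1479 and 451 were called for lean d5 to d3, d10 to d7 and d7 to d3, 45 for DIO d14 to d10 and 325 and 0 for the diets on d3 and d5. With all libraries in 1 fit, 202, 2, 1529 and 523 were called for the lean steps, 1 and 2 for DIO d7 to d5 and d14 to d10, and 63, 675 and 3 for the diets on d5, d7 and d10.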

Other observations

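Bglap, the osteocalcin gene, was at 219 to 524 CPM in lean and 416 to 577 CPM in DIO callus of d10, whereas Col10a1, the collagen of hypertrophic cartilage, was at 3538 to 12046 CPM in lean and 929 to 1881 CPM in DIO callus of that day. Bglap shares reads with near-identical copies, so its level is uncertain.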
